A study of Sus scrofa with 2 samples.

Results

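ACTG1, TUBB, YWHAZ, HSP90AA1 and HSPA5 encode abundant proteins of the cytoskeleton, signalling and protein folding that are often treated as steady "housekeeping" genes. They were taken from the 83 genes that the array's probe annotation names, by a rule that uses their symbols and not their ratios. Earlier results of these data were known when they were chosen. Each gene had 3 spots with consecutive numbers, so these genes held 15 of the 249 named spots and of 3888 spots in all. The array was the porcine brain library (PBL) microarray, and 2 such arrays were hybridised, labelled as replicate 1 and 2 of a single group (array 1 and array 2). On each, cDNA from 18 µg of whole brain total RNA of a female pig 23 days old was divided, and both portions were labelled and compared with each other, to assess the background of the array. No treatment or genotype was compared, and the labels leave unstated whether array 2 used RNA of the same animal, so the spread given here is between hybridisations and may be technical.

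Gamma-actin and beta-tubulin are the building blocks of actin filaments and microtubules, which give neurons their shape and carry cargo along axons. The zeta 14-3-3 protein made from YWHAZ binds phosphorylated partners and is plentiful in brain. HSP90AA1 encodes the inducible cytosolic form of HSP90, which folds kinases and steroid receptors, and HSPA5 encodes BiP, the chaperone of the endoplasmic reticulum and a sensor of its folding load. Because the labels describe the same sample in both channels, a log2 ratio other than 0 here measures error and not regulation. The ratio gives no level of expression, so neither the abundance of these genes nor the brain markers of the tissue could be checked. The authors' direction of the ratio is unknown, and a positive value means only that one channel was brighter than the other.

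These 5 genes fell into 2 kinds. ACTG1, HSP90AA1 and HSPA5 had small ratios at each of their 9 spots on both arrays. The farthest of these 18 values from 0 reached a size of 0.26, or 1.20-fold. TUBB and YWHAZ scattered far more widely, and they were the only 2 of the 83 named genes with any value of exactly 0. Of 30 values for the 5 genes, 6 were exactly 0, whereas 0 of the values of the other 234 named spots were. Over all 249 named spots, 0.803% were exactly 0 on array 1 and 1.61% on array 2, against 0.231% and 0.501% of spots 1 to 2595, the stretch that ends with the last named gene. Most zeros lay past this stretch, so that 14% and 12.7% of all spots on the arrays were exactly 0. Whether an exact 0 is a measured ratio or a missing one is unknown, so zeros are given apart.

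**Figure D1:**
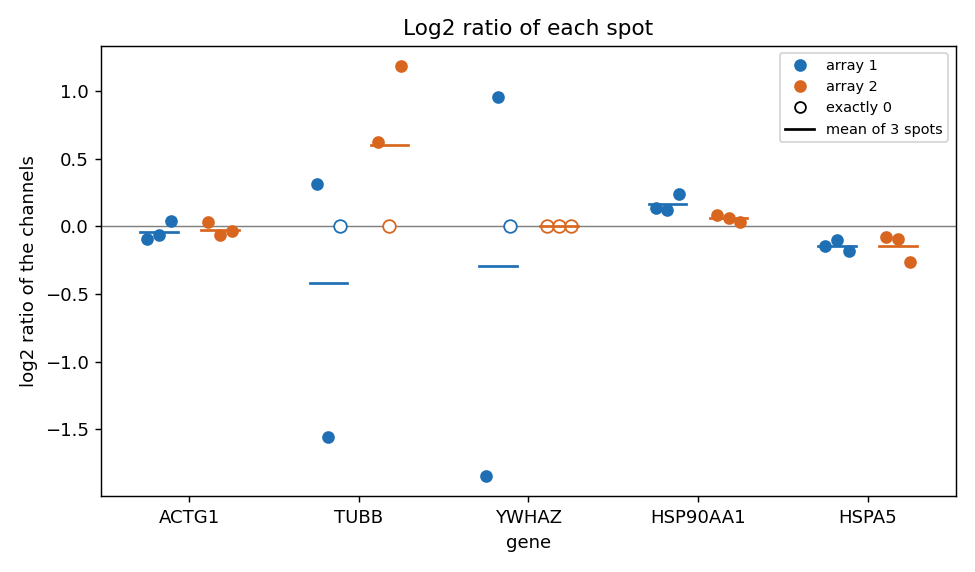
Log2 ratio of the channels (y axis) at each of the 3 spots of the 5 genes (x axis) on array 1 and array 2; open circles are values of exactly 0 and bars are means of the 3 spots. ACTG1, HSP90AA1 and HSPA5 stay within 0.26 of 0, whereas TUBB reaches -1.56 and 1.18 and YWHAZ -1.84 and 0.96.

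Of the cytoskeletal pair, ACTG1 (NCBI gene 397653, spots 427 to 429) lay closest to 0. Its log2 ratios on array 1 were -0.096, -0.063 and 0.039 in spot order, and on array 2 they were 0.032, -0.067 and -0.037. The arrays overlapped fully, and only the middle spot had the same sign on both. The gene mean was -0.040 on array 1 and -0.024 on array 2, or -0.032 ± 0.011 (SD, n = 2), a 1.02-fold difference between channels.

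TUBB (NCBI gene 733686, spots 190 to 192) had log2 ratios of 0.31, -1.56 and exactly 0 on array 1. On array 2 the same spots had 0.62, exactly 0 and 1.18. Only the first spot had a value other than 0 on both arrays, and there both were positive. The gene mean changed sign between arrays, from -0.42 to 0.60, so its average of 0.092 ± 0.72 (SD, n = 2) is much smaller than its spread. Its change of 1.02 between arrays was the largest of the 83 named genes, where the median was 0.082. Without the zeros the arrays stood further apart, at -0.62 and 0.90, each from 2 spots. The table of pig RefSeq genes lists TUBB2A as a synonym of this TUBB entry, so the symbol does not settle which beta-tubulin the spotted clone represents; beta-tubulins are a family of very similar genes.

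YWHAZ (NCBI gene 780440, spots 1009 to 1011) had log2 ratios of -1.84, 0.96 and exactly 0 on array 1. On array 2 all 3 of its spots were at exactly 0. No YWHAZ spot therefore had a non-zero value on both arrays, and array 1 alone holds what is known of it. There the first and second spots, both annotated to YWHAZ, pointed in opposite directions by 3.59-fold and 1.94-fold. The mean of -0.15 ± 0.21 (SD, n = 2) averages -0.30 with a listed 0, and without zeros array 1 gave -0.44 from its 2 other spots. The other named member of the 14-3-3 family, YWHAQ (the theta form), showed none of this scatter. All 6 YWHAQ values were negative, with gene means of -0.096 and -0.088 and an SD over its 3 spots of 0.058 on array 1 and 0.097 on array 2.

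The 2 chaperones were each one-sided, in opposite directions. HSP90AA1 (NCBI gene 397028, spots 1285 to 1287) had log2 ratios of 0.14, 0.12 and 0.24 on array 1. On array 2 the values were 0.085, 0.061 and 0.031, all positive and all below the lowest value of array 1. The gene mean was 0.16 on array 1 and 0.059 on array 2, giving 0.11 ± 0.075 (SD, n = 2), a 1.08-fold difference between channels. On array 1 only 1 of the 83 genes had a higher mean, as HSP90AA1 ranked 82 from the lowest; on array 2 it ranked 54.

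HSPA5 (NCBI gene 407060, spots 454 to 456) had log2 ratios of -0.15, -0.10 and -0.18 on array 1 and of -0.079, -0.095 and -0.26 on array 2. All 6 values were negative, and the arrays overlapped. The gene means were -0.14 and -0.14, an average of -0.14 ± 0.0011 (SD, n = 2) and a 1.10-fold difference between channels. This was the smallest change between arrays of the 83 named genes, at 0.0016. The single spots agreed less closely, as they moved by 0.069, 0.0053 and -0.079 from array 1 to array 2 and these shifts cancelled in the mean. A single sign at all 6 values was common among the named genes: 16 genes (19.3%) had 6 positive values, as HSP90AA1 did, and 15 (18.1%) had 6 negative values, as HSPA5 did. HSP90AA1 exceeded HSPA5 by 0.31 on array 1 and by 0.20 on array 2, a 1.24-fold and a 1.15-fold gap that no common shift of an array can change.

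**Figure D2:**
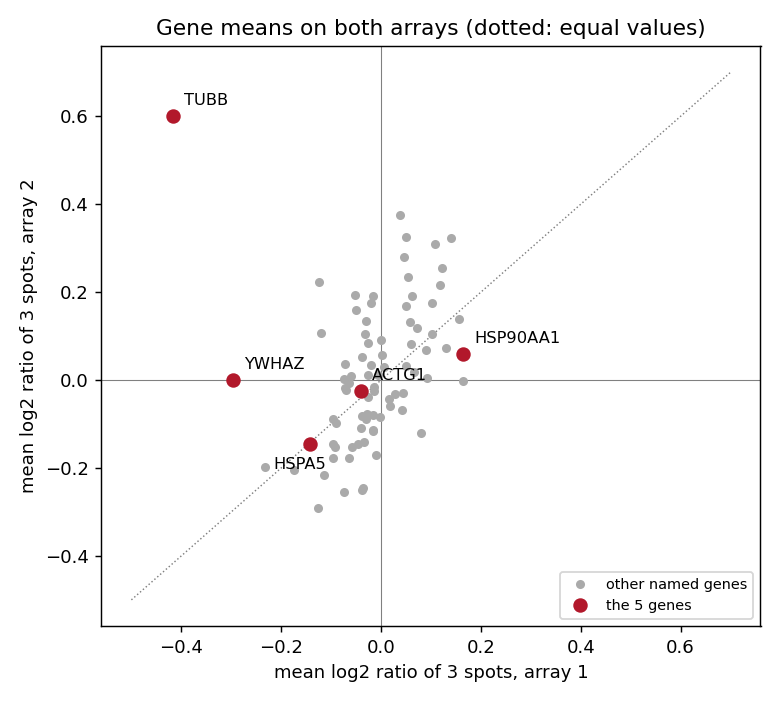
Mean log2 ratio of the 3 spots on array 1 (x axis) and array 2 (y axis) for the 83 named genes, each point a gene; the dotted line marks equal values. HSPA5 and ACTG1 lie near the line, HSP90AA1 below it, and TUBB, at -0.42 and 0.60, lies apart from every other gene.

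The average of the 3 spots of every named gene was tested against 0 over 2 arrays with limma, with Benjamini-Hochberg adjustment over 83 genes. In this test 0 of the 5 genes passed an adjusted p of 0.05, where 5 of 83 (6.02%) did; 20 of the 83, HSPA5 and YWHAZ among them, had an unadjusted p under 0.05. The adjusted p from limma was 0.17 for both HSPA5 (95% interval of the mean -0.28 to -0.011) and YWHAZ (-0.28 to -0.014). It was 0.33 for HSP90AA1 (-0.021 to 0.24), 0.48 for TUBB (-0.056 to 0.24) and 0.81 for ACTG1 (-0.17 to 0.10). These intervals rest on a spread shared over genes, with an SD of 0.095, and so do not describe TUBB, whose own SD between arrays was 0.72, nor YWHAZ, with an SD of 0.21. For HSPA5 the shared SD lies far above its own of 0.0011, which comes from 2 means whose spot shifts cancelled. Without moderation its 95% interval was -0.15 to -0.13, with an unadjusted p of 0.0036 and an adjusted p of 0.30 in limma. The YWHAZ values of the moderated fit also rest on the 3 listed zeros of array 2, and with zeros left out it could not be tested. Without moderation its unadjusted p in limma was 0.50. A mean of exactly 0 on 1 of 2 arrays fixes that p whatever the other value is, so it says nothing about YWHAZ. With robust eBayes, which lets outlying genes keep their own spread, the interval for TUBB widened to -6.37 to 6.55, while that for HSPA5 was -0.27 to -0.014. Among the alternatives run, TUBB passed only with the sign of array 2 turned, at a mean of -0.51 (adjusted p = 0.00038 in limma). That mean draws mostly on spot 191 of array 1 and spot 192 of array 2, each exactly 0 on the other array. At spot 190, the only TUBB spot with values other than 0 on both arrays, turning gives the arrays opposite signs. In limma on single spots with array 2 turned, the unadjusted p was 0.72 for spot 190. It was 0.36 for spots 191 and 192, as for spots 1009 and 1010 of YWHAZ. An exact 0 on 1 array nearly fixes that p when the other value is large, so it says nothing about TUBB. In limma over all 3888 spots, 0 of the 15 spots of these genes passed, as did 0 of all spots (0%). Spots 455 and 456 of HSPA5 had an unadjusted limma p of 0.031 and 0.039, and 412 of all spots were under 0.05. That fit kept all exact zeros. With exact zeros left out, the unadjusted limma p was 0.19 for spot 455 and 0.037 for spot 456. The lowest among these genes was then 0.019 in limma, for spot 190 of TUBB, and 313 of 3187 spots were under 0.05.

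Beyond 2-fold lay 3 of the 30 values. On array 1 these were 1 spot each of TUBB and YWHAZ, 2 of 15, against 0.803% of the named spots, 0.231% of spots 1 to 2595 and 2.91% of all spots. On array 2 it was 1 spot of TUBB, against 0.402% of the named spots, 0.193% of spots 1 to 2595 and 3.73% of all spots. No other named gene had a spot beyond 2-fold on either array: the largest ratio among the other 234 named spots was 0.29 on array 1 and 0.61 on array 2.

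The spread of the 3 spots of each gene showed the same division. On array 1 YWHAZ had an SD over its 3 spots of 1.42 and TUBB of 1.001, the 2 highest of 83 genes, against 0.070 for ACTG1, 0.065 for HSP90AA1 and 0.041 for HSPA5. The median over the named genes was 0.041. On array 2 TUBB was again the highest at 0.59, while HSPA5 had 0.10, ACTG1 0.051 and HSP90AA1 0.027, against a median of 0.090. The SD of 0 for YWHAZ on array 2 is that of 3 listed zeros and is no sign of precision. Among the other 78 named genes the largest SD was 0.18 on array 1 and 0.25 on array 2, below every non-zero SD of TUBB and YWHAZ.

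**Figure D3:**
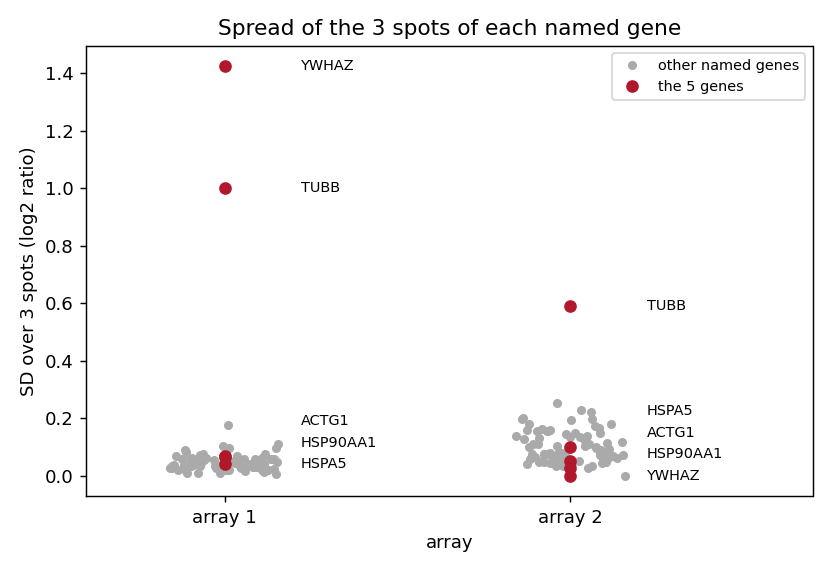
SD of the log2 ratio over the 3 spots of a gene (y axis) on each array (x axis) for the 83 named genes, each point a gene; gene labels are stacked in the order of their SD. YWHAZ at 1.42 and TUBB at 1.001 stand apart on array 1 and TUBB at 0.59 on array 2, whereas the other 3 genes lie among the rest.

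The neighbours of TUBB did not share its scatter. The 12 spots that flank it, 6 on each side in spot number, ranged from -0.14 to 0.038 on array 1 and from -0.22 to 0.32 on array 2. The flanks of YWHAZ ranged from 0.013 to 0.40 on array 1. On array 2 they ranged from -0.49 to 3.19, the highest being spot 1003 of an unnamed run that also holds an exact 0. Among spots 1 to 2595, 7 of 865 runs of 3 spots held a zero. Of these 7, which include TUBB, YWHAZ and 5 unnamed runs, 5 also held a value beyond 2-fold, as did 4 of the 858 runs without a zero. Exact zeros and large ratios thus often lay in the same runs; spot brightness was not used here, and its part was not tested.

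HSPA5 lay among spots that were themselves negative. Of its 24 flanking values over both arrays, 23 were below 0, with a median of -0.11 on array 1 and -0.23 on array 2. These medians ranked second lowest and lowest among the flanks of the 83 named genes. Measured from its flanks, HSPA5 stood at -0.034 on array 1 and 0.083 on array 2, so its mean turned from -0.14 to 0.025 (adjusted p = 0.70 in limma). For ACTG1 the reverse held: its flanks were mostly positive, with medians of 0.11 and 0.11, and relative to them it stood at -0.15 and -0.14. HSP90AA1, at 0.11 as deposited, stood at 0.17 relative to its flanks, with 0.20 on array 1 and 0.14 on array 2. Its lead over HSPA5 was then narrower than as deposited, at 0.20 against -0.034 on array 1 and 0.14 against 0.083 on array 2. In limma on the differences from the flanks the adjusted p was 0.22 for both ACTG1 and HSP90AA1, and 0 of 83 genes passed. The unadjusted limma p was under 0.05 for 15 genes, ACTG1 (0.018) and HSP90AA1 (0.021) among them. This comparison was chosen after the values were seen, and where the spots lie on the slide is not given in the sources used here, so whether spot number follows place on the slide was not tested.

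**Figure D4:**
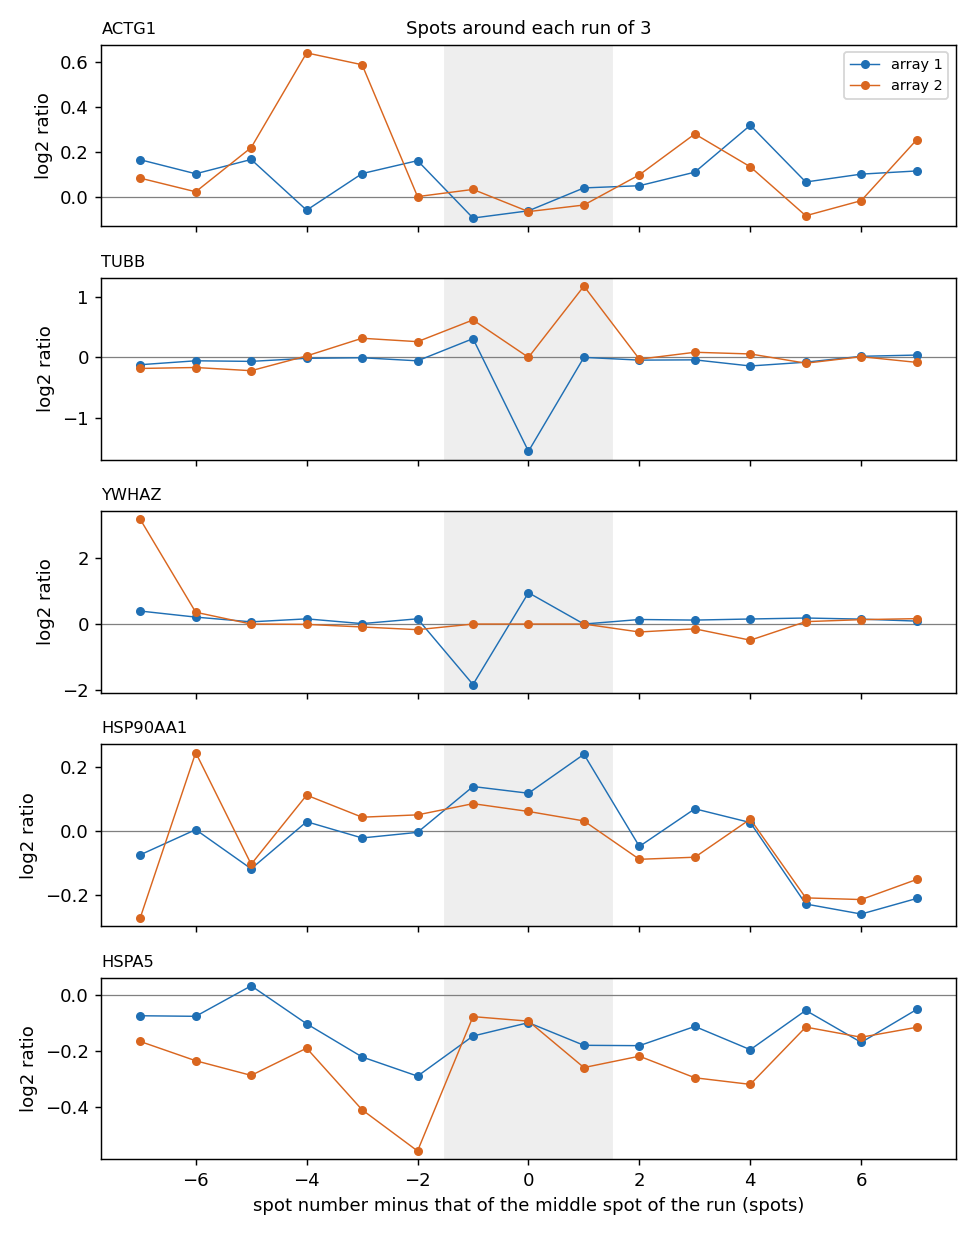
Log2 ratio (y axis, with its own scale in each panel) against spot number counted from the middle spot of each gene's run (x axis) on both arrays; the grey band marks the 3 spots of the gene. Inside the band TUBB leaves the level of most neighbours on both arrays and YWHAZ on array 1, while YWHAZ is listed at 0 on array 2, and HSPA5 sits within a stretch where 23 of 24 flanking values are negative.

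The named genes whose pair of array means lay closest to each of these genes were compared by Euclidean distance over 2 arrays. For ACTG1 they were PPP2R1A, a scaffold subunit of protein phosphatase PP2A, at a distance of 0.020, and GNAI2, an inhibitory G protein subunit, at 0.027. For HSP90AA1 they were PNISR at 0.036 and PIK3C3 at 0.061, and for HSPA5 they were MT3, the brain metallothionein, at 0.047 and SLC25A6, an ADP/ATP carrier, at 0.052. YWHAZ had its nearest at 0.21 (RPS26 and CPE, both 0.21). Its place on array 2 is that of listed zeros, which may be missing values, and RPS26 (0.11) and CPE (-0.20) lay on opposite sides of it there. TUBB had none near it: SCD was at 0.48 and COX6B at 0.51.

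Few relatives of these genes were among the 83 named genes; spots without a symbol may hold others. Of 52 cytoskeletal genes listed, 2 were named (ACTG1 and TUBB), of 7 genes of the 14-3-3 family 2 (YWHAZ and YWHAQ), of 40 chaperones and folding factors 2 (HSP90AA1 and HSPA5), and of 20 commonly used reference genes 4 (ACTG1, TUBB, YWHAZ and B2M). None of these genes passed the limma threshold. B2M, the light chain of MHC class I, had 6 positive values and gene means of 0.061 and 0.081. The references differed in how far their means lay apart on the 2 arrays: the gap was 0.016 for ACTG1, 0.021 for B2M and 1.02 for TUBB on the log2 scale. The TUBB gap averages in a listed zero on each array, and its only spot without a zero on either array moved by 0.31. For YWHAZ no gap between measured values can be given, as array 2 lists only zeros.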

How the data were processed

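For every spot, the authors deposited a signed log ratio between channels, read here as log2; how the background was corrected, how arrays were normalized and the log base are not given in the sources used here. The largest size, 6.20, exceeds what log10 of a usual scanner range allows; a natural log remains possible, and every fold would then be larger. Gene symbols came from the platform's annotation, and 5 of 5 gene identifiers were found in the pig RefSeq table (assembly Sscrofa11.1); no coordinates are given, as no build goes with the array. The 3 spots of a gene were averaged, zeros kept, and gene means were tested against 0 in R 4.3.3 with limma 3.58.1 (intercept, eBayes), which was also tested on simulated data. Python 3.11.15, pandas 2.3.3 and matplotlib 3.10.9 were used. Depth does not apply to arrays; their number, 2, limits precision. The genes and lists were chosen with earlier results of these data known. Genes named beside the 5 were the 2 nearest by array means and named members of the lists.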

Additional observations from a re-analysis of the deposited data

How the results depend on the processing

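No paired analysis was possible because both arrays belong to 1 group. The 5 named genes past the limma threshold became 4 with robust eBayes; 0 with zeros left out (YWHAZ untested, having 1 array), with the median of 3 spots, with centring on non-zero spots or on named genes, with equal spread, without moderation and relative to flanking spots; 1 with array 2 turned and with spots as duplicates; and 8 with TUBB and YWHAZ left out of the fit. The last change and the flanking spots were chosen after seeing the data. TUBB turned to -0.083 with equal spread of the arrays and to -0.51 with array 2 turned. On array 1 alone it was -0.42 (0.60 on array 2). HSPA5 turned to 0.00080 with array 2 turned and to 0.025 relative to its flanks. The values with array 2 turned follow by arithmetic from the array means, -0.42 and 0.60 for TUBB and -0.14 and -0.14 for HSPA5. Why the TUBB means differ in sign and why the flanks of HSPA5 are negative was not tested. ACTG1 and HSP90AA1 kept their sign in all 13 alternatives each, but some of these could not turn it. Leaving out zeros changes neither mean, as neither gene has a zero. Robust eBayes, no moderation, leaving out TUBB and YWHAZ, and spots as duplicates change the spread used and not these means. In the spot fits 0 of the spots tested passed, with 15 tested, or 10 without zeros and 14 without moderation. The 3 values beyond 2-fold became 5 at 1.5-fold, 1 at 3-fold and 1 to 2 with single arrays. The mean spot SD was 0.051 to 0.070 by array for ACTG1, 0.59 to 1.001 for TUBB, 0 to 1.42 for YWHAZ, 0.027 to 0.065 for HSP90AA1 and 0.041 to 0.10 for HSPA5. As a range it was 0.12 for ACTG1, 1.53 for TUBB, 0.087 for HSP90AA1 and 0.13 for HSPA5. Without zeros it was 1.98 for YWHAZ. Brightness over background could not be used as a limit.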
